A study of Mus musculus with 19 samples.

Results

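Il10 encodes interleukin-10, a cytokine that macrophages release after microbial stimulation and that restrains inflammatory gene expression. Il10ra encodes the ligand-binding chain of the interleukin-10 receptor, which signals through JAK1, TYK2 and STAT3 together with the shared chain encoded by Il10rb. Il10 is therefore an inducible gene of the responding macrophage, and Il10ra sets whether a cell can sense the cytokine. ATAC-seq marks open chromatin, where Tn5 transposase can insert sequencing adapters, and peaks near such genes are candidate promoters and enhancers.

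The accessible regions around both genes were taken from a consensus list of 140383 peaks of mouse bone marrow-derived macrophages (BMDMs). A region belonged to Il10 when it overlapped chromosome 1 from 130920000 to 130980000, and to Il10ra when it overlapped chromosome 9 from 45140000 to 45210000 (build mm39). These windows held 18 and 30 peaks, 48 in all. The genes and windows were chosen by earlier results on the same list, among them the high number of peaks around Il10ra. Peak number, spacing, width and fold at these loci are therefore given as descriptions without a test.

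The cells came from Smarca5lox/lox Csf1r-Cre mice, labelled Smarca5-/-, and from Csf1r-Cre wild-type mice. The deleted gene, Smarca5, encodes the ATPase that drives ISWI nucleosome remodellers. Csf1r-Cre acts in cells that express the macrophage growth factor receptor, and the culture protocol, which both genotypes share, added 4-hydroxytamoxifen daily over 7 days of differentiation. Besides untreated cells, each genotype had cells exposed for 1 or 2 h to 10 ng/ml of the bacterial product LPS or to 100 U/ml of the cytokine interferon beta. The Smarca5-/- cells gave 10 samples, 2 in each of their groups, and the wild-type cells gave 9, with 1 sample in the group given interferon beta for 1 h and 2 in each of the others. The list gives 1 set of values per peak over the whole series. Effects of the deletion, LPS or interferon beta on either locus could not be measured from it, no replicate error applies, and sequencing depth is unknown. The identity of the cells was not checked against marker genes, since no mm39 annotation was used here.

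Il10 lies on the plus strand with its start near position 130947580. In the RefSeq gene order of build GRCm38.p6, its neighbours are the long noncoding RNA gene Gm41952 on one side, followed by the related cytokine genes Il19, Il20 and Il24, and Mapkapk2 on the other, which encodes a kinase downstream of p38. Il10ra lies on the minus strand from about 45165135 to 45180447, a span of 15313 bp, so its start is the higher coordinate. In the same gene order it is followed toward higher coordinates by Lncbate3 and Tmprss13, preceded by BC049352 and Tmprss4, and holds the microRNA gene Mir7086. Peaks were not assigned to any of these neighbours, because positions in that build cannot be set beside positions in mm39. Exons and introns could not be assigned for the same reason.

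Il10ra had more accessible regions than Il10, and they lay closer together. The Il10 window held 3 peaks per 10 kb and the Il10ra window 4.29. Peaks nevertheless covered nearly the same share of both windows, 9.11% at Il10 and 9.29% at Il10ra, with wider peaks in the Il10 window. The summed peak width was 5463 bp at Il10 and 6505 bp at Il10ra.

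Both loci stood far up in the range of peak number along the genome. Among 42717 windows of 60 kb that tiled the autosomes and X, the median held 1 peak, the upper quartile 6 and the fullest 28. At least 18 peaks, the number at Il10, were found in 366 of them (0.857%), and 1 of these overlapped the Il10 window itself. Among 36618 windows of 70 kb, the median also held 1 peak, the upper quartile 7 and the fullest 31. At least 30 peaks, the number at Il10ra, were found in 6 of them (0.0164%), and 1 of these overlapped the Il10ra window itself. Windows without a peak, 45.3% of those of 60 kb and 43.7% of those of 70 kb, are counted in these shares. The shares place the loci in the list and do not test them, since the number of peaks helped to choose the genes.

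**Figure D1:**
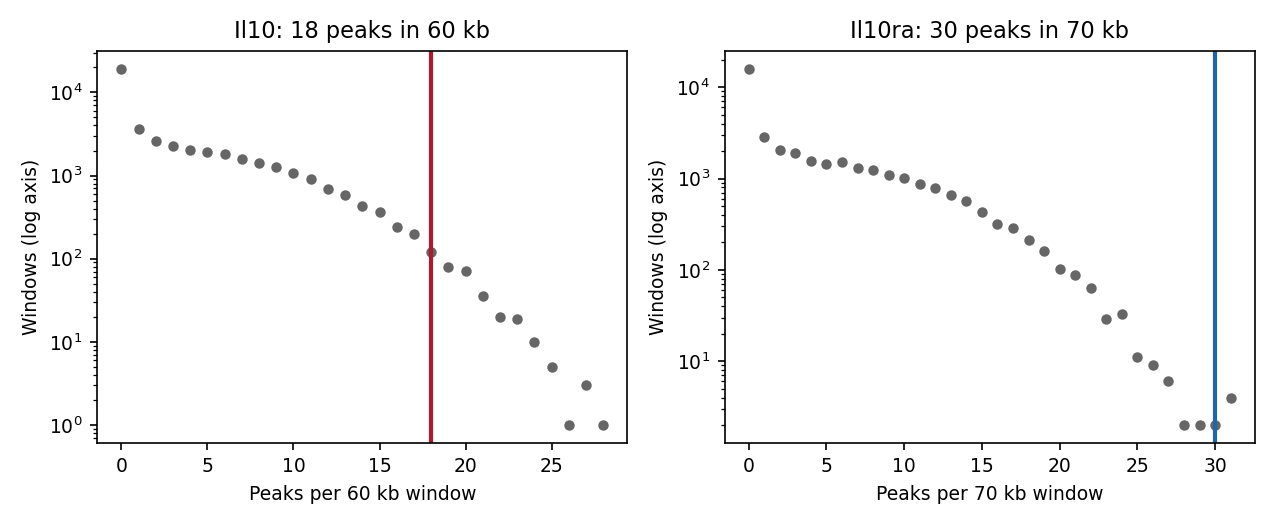
Number of peaks per window (x axis) against the number of windows with that many peaks (y axis, log scale), for windows of 60 kb (left) and 70 kb (right) along the autosomes and X. Coloured lines mark the Il10 window with 18 peaks and the Il10ra window with 30 peaks, and both lie in the sparse right-hand tail.

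Spacing was measured as the number of bases between the end of a peak and the start of the next. The median gap was 2777 bp at Il10 (17 gaps, quartiles 1287 and 3903 bp) and 1760 bp at Il10ra (29 gaps, quartiles 408 and 3054 bp), against 5089 bp over the whole list. Gaps under 1000 bp made up 3 of 17 at Il10 and 11 of 29 at Il10ra, against 18.6% of all gaps in the list. The share at Il10 was thus near that of the list, and the excess of gaps under 1000 bp was at Il10ra. There it did not extend to the peaks before the start, with 1 of 8 such gaps, against 6 of 9 within the gene and 4 of 10 beyond its end. By median gap, both loci were more closely spaced than the list.

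The longest stretch without a peak was 9501 bp at Il10 and 7053 bp at Il10ra, and the 2 stretches lay in different places. At Il10 it was upstream, between peaks whose summits lay 13.96 and 4.29 kb before the start. At Il10ra it ran across the gene's end, between a peak with its summit 9.39 kb inside the gene and a peak with its summit 16.50 kb from the start, just beyond the gene.

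The median peak width was 257 bp at Il10, with a range from 120 to 751 bp, and 203.5 bp at Il10ra, with a range from 43 to 476 bp. The median of the whole list was 196 bp. Of the Il10 peaks, 7 of 18 were narrower than that, and of the Il10ra peaks, 14 of 30. Widths overlapped widely between the loci, and their order turned round for peaks near the genes (summit within 10 kb of the Il10 start, or within 5 kb of the Il10ra gene), with medians of 179.5 bp at Il10 and 187.5 bp at Il10ra.

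Fold, the authors' enrichment of a peak over its local background, was low at both genes. Its median was 6.23 at Il10, with quartiles of 5.03 and 7.73, and 7.06 at Il10ra, with quartiles of 4.36 and 9.64, against 9.85 over the whole list. A fold below the list median was seen in 14 of 18 Il10 peaks and 23 of 30 Il10ra peaks. A fold under 5 was seen in 4 of 18 peaks at Il10 and 10 of 30 at Il10ra, against 10.4% of the list. Folds of 15 or more occurred in 2 of 18 peaks at Il10 and 4 of 30 at Il10ra, against 27.0% of the list. By fold, each locus thus combined a few strong peaks with many weak ones, and the spread within a locus was larger than the difference between their medians. By −log10 q the peaks did not stand low, with a median of 62.1 at Il10 and 97.9 at Il10ra, against 45.3 over the whole list. For peaks near the genes, chosen as for width, the order of the medians turned round, with 5.26 at Il10 and 4.68 at Il10ra. This turn depended on the distance chosen. For peaks reaching within 5 kb of the gene start, the median fold was 5.11 at Il10 and 9.03 at Il10ra. It was also lower at Il10 within 1, 20 and 25 kb, and higher within 10 kb.

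**Figure D2:**
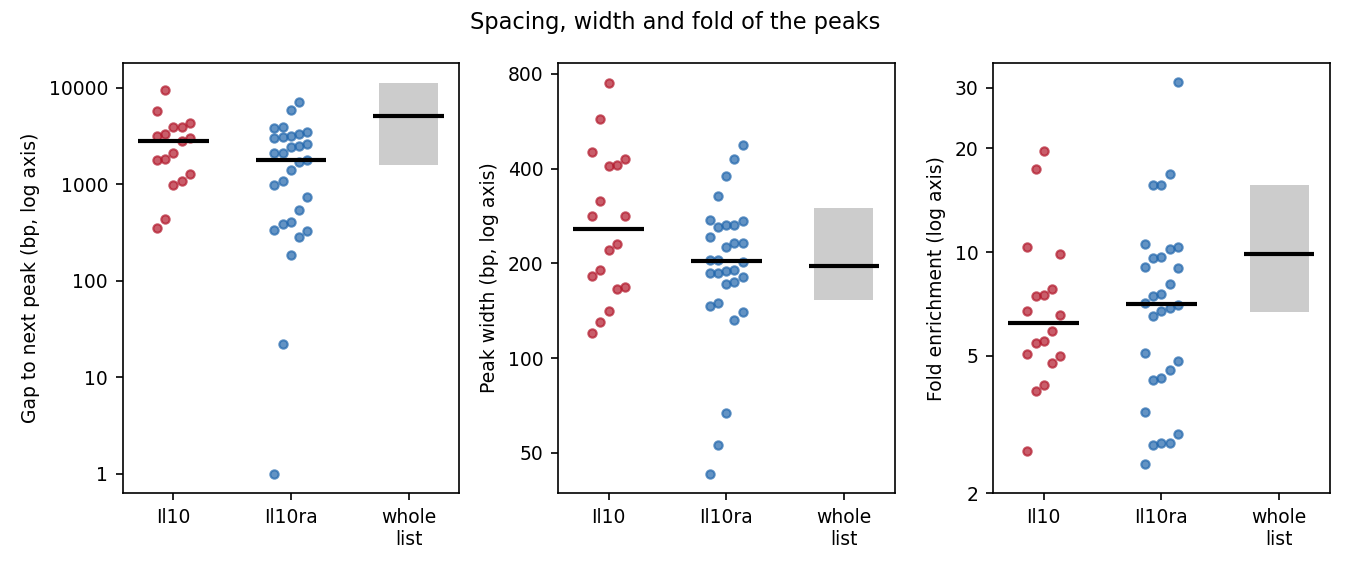
Gap to the next peak, peak width and fold (y axes, all log scale) for each peak at Il10 and Il10ra, with black lines at the medians; the grey boxes span the quartiles of the whole list around its median. Touching peaks, with a gap of 0 bp, are drawn at 1. Median gaps are 2777, 1760 and 5089 bp, and median folds 6.23, 7.06 and 9.85, for Il10, Il10ra and the whole list.

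The peak over the Il10 start ran from 130947283 to 130947735. It was 453 bp wide, with a fold of 6.74 and a −log10 q of 78.8, and it was the only peak within 1 kb of the start. Its fold was higher than that of 25.2% of the list and ranked 8 of 18 within the locus. Its width, in contrast, ranked 3 of 18. The cytokine's promoter peak was thus wide for its locus and low by fold against the list, though not low within its locus. By −log10 q it ranked 6 of 18 and stood above 66.1% of the list.

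The start of Il10ra was covered by a peak from 45180347 to 45180572, 226 bp wide, with a fold of 10.2 and a −log10 q of 169. A second, narrower peak of 53 bp lay 186 bp away, inside the gene, from 45180108 to 45180160, with a fold of 9.65 and a −log10 q of 164. Another peak within 1 kb, with its summit 0.92 kb inside the gene, had a fold of 4.54. The receptor's promoter peak had a higher fold than 52.1% of the list and ranked 7 of 30 within its locus. The start of Il10 was therefore covered by 1 wide peak, and that of Il10ra by a narrower peak of higher fold with a close companion.

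The strongest region at Il10 was not its promoter. It ran from 130953434 to 130954010, with its summit 6.21 kb after the start, and was 577 bp wide, with a fold of 19.6 and a −log10 q of 720. A higher fold was seen in 15.7% of the list. The RefSeq length of Il10 in GRCm38.p6 is 5126 bp, and the peak began 5854 bp from the mm39 start given for the gene; where the gene ends in mm39 was not determined here. The next was a peak from 130965787 to 130966198, with its summit 18.44 kb after the start, a fold of 17.4 and a −log10 q of 480. The peaks of the locus with the next highest folds were at 17.08 kb before the start, with 10.4, and at 23.08 kb after it, with 9.90.

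Peaks before and after the Il10 start were alike in number but not in their strongest members. The 8 peaks before it had folds from 4.12 to 10.4, with a median of 7.03. The 9 after it had folds from 2.66 to 19.6, with a median of 5.53. The side after the start thus held both the highest and the lowest folds of the locus. The widest Il10 region, 751 bp from 130973803 to 130974553, had the lowest fold of all, 2.66. It was wide without being strongly enriched, and its −log10 q was 26.7.

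Within 5 kb of the Il10 start there were 6 peaks with folds from 3.96 to 6.74. Of these, 3 lay upstream, with summits 4.29, 3.75 and 2.58 kb before the start and folds of 6.58, 5.44 and 4.12. The other 2 beside the promoter peak lay 1.30 and 1.87 kb after it, with folds of 3.96 and 4.78. Close to the gene, the promoter peak therefore had the highest fold, and the strong regions lay farther out.

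**Figure D3:**
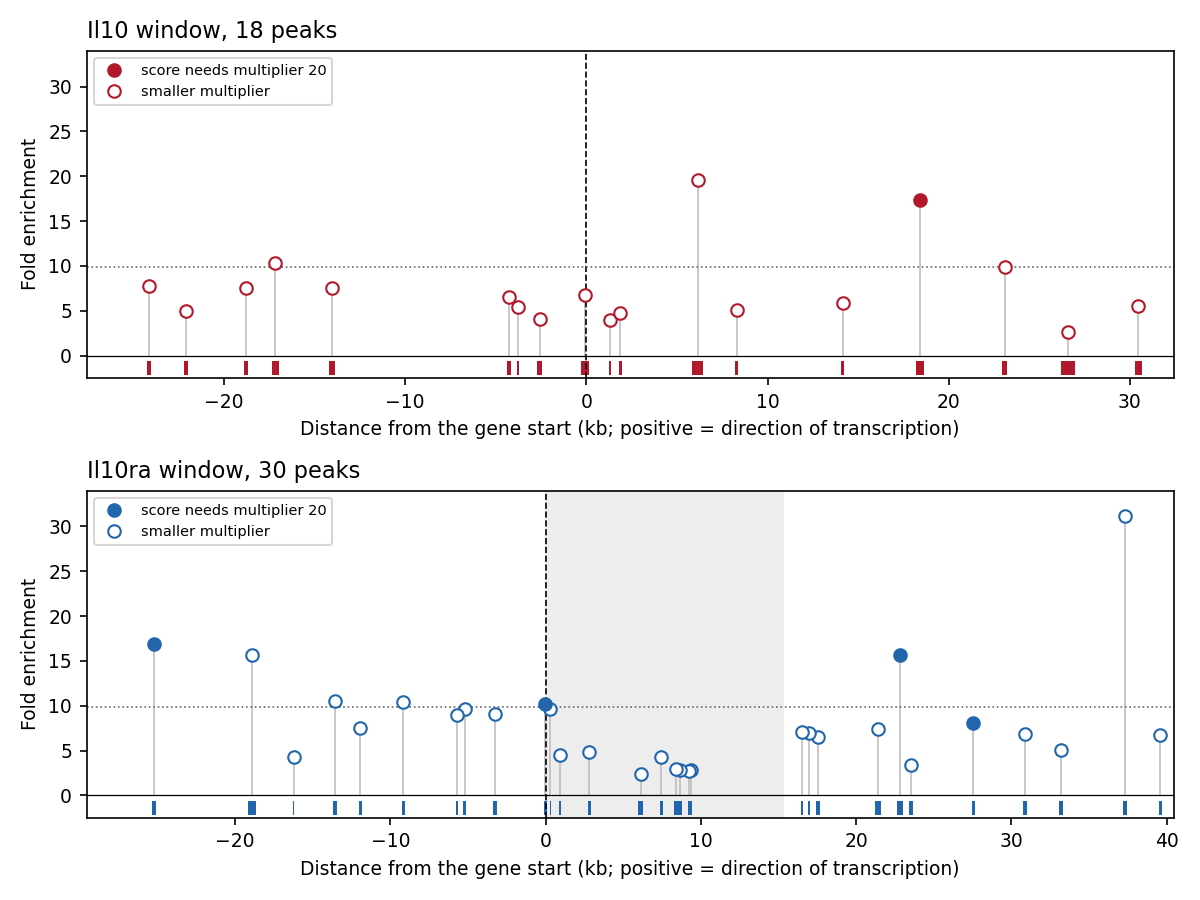
Each peak's fold (y axis, points at the peak centres) against its distance from the gene start in kb (x axis, positive in the direction of transcription), with bars below 0 drawn to scale for peak width; the shaded area is the Il10ra gene, the dashed line the gene start and the dotted line the list's median fold of 9.85. Filled points need the multiplier 20 to make their score whole. The highest Il10 points are at 6.21 and 18.44 kb after the start and the highest Il10ra point, 31.1, at 37.30 kb; within the Il10ra gene, 8 of 10 folds are under 5, and the 2 higher ones, 10.2 and 9.65, lie at its start.

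Inside Il10ra the peaks were many, close and weak. Of the 30 peaks in the window, 10 overlapped the gene, 9 lay before its start and 11 beyond its end. Within the gene, the median fold was 3.63 and the median −log10 q 20.6. Before the start, the median fold was 9.62 and the median −log10 q 164. Beyond the end, the median fold was 7.02 and the median −log10 q 118. A fold under 5 was seen in 8 of the 10 peaks within the gene, 1 of the 9 before the start and 1 of the 11 beyond the end.

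The weak group had its core between 6.03 and 9.39 kb from the start, where 6 peaks had folds of 2.43 to 4.30. The weakest, from 45174153 to 45174479, had a fold of 2.43, and 99.8% of the list had a higher one. A pair from 45171636 to 45171896 and from 45171897 to 45172169 touched with no base between them, with folds of 2.80 and 2.96. Another pair, from 45171049 to 45171091 and from 45171114 to 45171302, was separated by 22 bp, with folds of 2.79 and 2.76. The 43 bp peak of that pair was the narrowest at either locus. Of the 9 gaps among peaks within the gene, 6 were under 1000 bp, so the gene held 6 of the 11 close gaps of its window. When peaks less than 50 bp apart were joined, the Il10ra window held 28 regions and the Il10 window kept 18.

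The 9 peaks before the Il10ra start had folds from 4.25 to 16.9, with quartiles of 9.02 and 10.6. The 4 nearest, at 3.24, 5.18, 5.70 and 9.14 kb before it, had folds of 9.03, 9.62, 9.02 and 10.4 and −log10 q values from 164 to 229. The next 3, at 11.94, 13.52 and 16.23 kb, had folds of 7.56, 10.6 and 4.25. Farther out, peaks at 18.95 and 25.16 kb had folds of 15.7 and 16.9. The peak at 18.95 kb, from 45199109 to 45199584, was the widest of the locus at 476 bp, and the one at 25.16 kb, from 45205517 to 45205781, had a −log10 q of 248.

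The strongest peak of the receptor window lay far beyond the gene. It ran from 45143035 to 45143266, 37.30 kb from the start in the direction of transcription, with a fold of 31.1 and a −log10 q of 548, and 97.7% of the list had a lower fold. It was 232 bp wide. A second region beyond the end, from 45157455 to 45157833, 22.89 kb from the start and 379 bp wide, had a fold of 15.7 and a −log10 q of 373. A further 3 peaks clustered just beyond the gene's end, with summits at 16.50, 16.92 and 17.65 kb and folds of 7.1, 7.02 and 6.52, separated by gaps of 285 and 408 bp.

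Comparing the strongest regions, the highest fold was 19.6 at Il10 and 31.1 at Il10ra, but the highest −log10 q was 720 at Il10 and 548 at Il10ra. The order of the loci at their top therefore depended on the measure. The Il10 peak was 577 bp wide and the Il10ra peak 232 bp. Within 10 kb of the start, the highest fold was 19.6 at Il10 and 10.4 at Il10ra, and peak number was 8 at Il10 and 14 at Il10ra.

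Peaks at both loci ranked higher by −log10 q than by fold. Each peak was placed in the whole list by the percentage of peaks with a lower value. The percentile by −log10 q was above that by fold in 18 of 18 peaks at Il10 and 29 of 30 at Il10ra, against 38.1% of the list. The peak over the Il10 start, for example, stood at 66.1% by −log10 q and 25.2% by fold, and that over the Il10ra start at 81.8% and 52.1%. The exception was the strongest Il10ra peak, at 95.6% by −log10 q and 97.7% by fold. Some margins were small: the outermost Il10 peak stood at 34.9% by −log10 q and 34.8% by fold.

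The share of such peaks was higher in windows with more peaks. Among windows of 60 kb, the median window had 56.7% of its peaks placed higher by −log10 q than by fold where it held at least 10 peaks, and 75% where it held at least 15. For windows of 70 kb these shares were 50% and 66.7%. Among the 366 windows of 60 kb with at least 18 peaks, the share was 84.2% in the median window, with quartiles of 73.7% and 91.3%, and in 28 windows every peak was so placed. Their median window had a median fold of 7.28, and 94 of them (25.7%) had a lower median fold than Il10. Among the 6 windows of 70 kb with at least 30 peaks, the share ranged upward from 86.7%. It was 98.4% in the median window, against 96.7% at Il10ra. In 3 of these 6 windows every peak was so placed, and 5 of the 6 had a lower median fold than Il10ra. The median fold of Il10 thus lay near the lower quartile of similarly crowded windows, 6.19, and 1 of those windows overlapped the Il10 window itself. That of Il10ra, 7.06, was above the upper quartile of its 6 windows, 6.06, and 1 of those overlapped the Il10ra window itself.

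**Figure D4:**
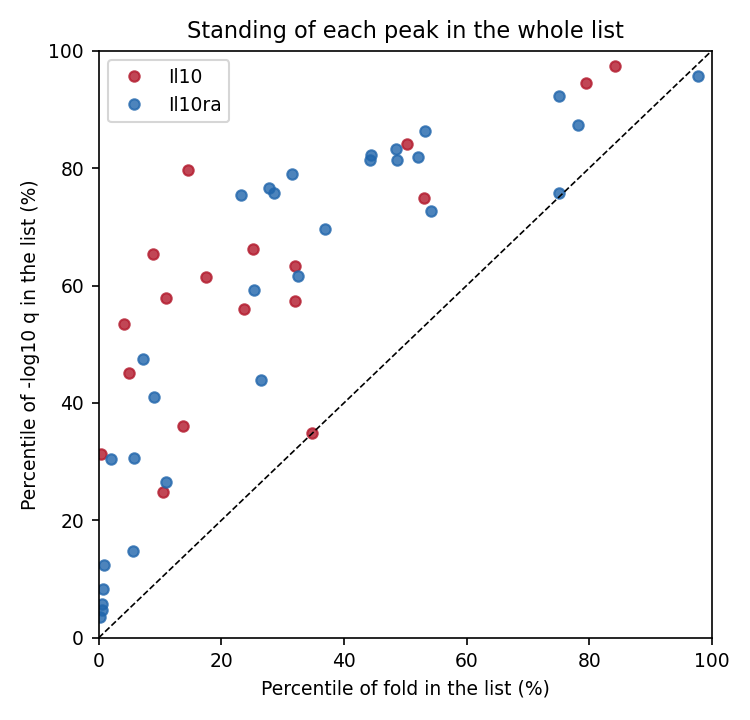
Percentile of each peak's fold in the whole list (x axis, %) against the percentile of its −log10 q (y axis, %), for Il10 and Il10ra. Points above the dashed line rank higher by −log10 q; all 18 Il10 peaks and 29 of 30 Il10ra peaks do.

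Within Il10ra the 2 measures ordered the peaks alike, with a Spearman's rho of 0.917 over 30 peaks, while within Il10 rho was 0.655 over 18 peaks, against 0.836 over the whole list. Fold and width were less closely ordered, with a rho of 0.356 at Il10 and 0.142 at Il10ra, against 0.389 in the list. The peaks share the libraries behind the list and are not independent, so these values are descriptions only.

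The deposited score of a peak behaves as an average of whole numbers, or as an average of such averages, and can be described by the smallest multiplier that makes it whole. A multiplier of 20, the largest in the list, was needed by 1 of 18 peaks at Il10 and 4 of 30 at Il10ra, against 14.6% of the list. At Il10 it was the region 18.44 kb after the start. The strongest Il10 region, 6.21 kb after the start, needed 10, and the peak over the Il10 start needed 2. At Il10ra the 4 were the peak over the start, the region 25.16 kb before it, and the regions 22.89 and 27.57 kb after it. The strongest Il10ra peak, 37.30 kb from the start, needed 4. The multiplier is not a count of samples: 20 is more than the 19 samples described, and an average of averages can need a multiplier above the number of values in it. A small multiplier does not show that few numbers were averaged, because an average of many can come out whole. Which samples entered an average is not stated by the list.

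Peaks continued beyond the edges of both windows. At Il10 the outermost peaks inside had folds of 7.81 on the low side and 5.53 on the high side, and the nearest outside had 10.9, at 2.63 kb from the edge, and 5.82, at 0.241 kb. At Il10ra the outermost peaks inside had folds of 6.74 and 16.9, and the nearest outside had 21.7, at 6.65 kb from the edge, and 11.0, at 0.480 kb.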

How the data were processed

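The labels describe ATAC-seq of 19 BMDM samples in 10 groups, grouped here by their titles, and the file used is 1 consensus peak list for the series. Per the submitters' processing notes, reads were processed for mm39 with deepTools 3.5.1, MACS2 2.2.7.1, Picard 2.27.4 and STAR 2.7.9a. What each tool did, the handling of the Tn5 offset, the peak threshold and how libraries were merged are not given in these sources. The deposited values per peak are a fold (the ratio that MACS2 writes as signal, or an average of such ratios), a −log10 q and a score close to 10 times the −log10 q. All are the authors' own and serve here to describe and rank peaks within that list. The fold and −log10 q may, like the score, be averages over sets of values that differ between peaks, which limits such ranks. Positions were read as counted from 1, since 74 summit offsets would otherwise reach the peak width.

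Peaks overlapping a window by at least 1 bp were kept, with no filter. Whole multiples were accepted within 1e-06 of a whole number, multiplied by the multiplier. Windows of equal size were tiled from the first base of each chromosome and counted between its first and last peak. Counting, merging and multipliers were tested on simulated data. Peaks named are those over or nearest the gene starts, the strongest and widest, the window edges and the weak group within Il10ra, the last chosen after its values were seen, as were the thresholds on fold and gap. The genes and windows were chosen with earlier results of these data known. Planned lists of pathway genes, cell type markers and promoter motifs were not analysed here, because the gene table used is GRCm38.p6. Scripts ran in Python 3.11.15 with matplotlib 3.10.9, scipy 1.17.1, pandas 2.3.3 and numpy 2.4.6.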

Additional observations from a re-analysis of the deposited data

How the results depend on the processing

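Over 8 results, 4 alternatives were run: 26 of 32 values stayed within 1.5 times (peak number) or within the 95% order-statistic interval of the median, which treats peaks as independent. The 26 include the Il10 values after joining peaks less than 50 bp apart. These could not change, since the smallest gap at Il10 was 351 bp. Counting only peaks with a summit near the gene (within 10 kb of the Il10 start, or within 5 kb of the Il10ra gene) left 8 peaks at Il10, with a median gap of 1072 bp, and 14 at Il10ra, with a median fold of 4.68. Fewer peaks follow from the smaller regions. The 8 Il10 peaks left out the longest gap of the window, 9501 bp. The 14 Il10ra peaks took in all 10 that overlapped the gene, with a median fold of 3.63. Why peaks near the genes differed in gap and fold from those farther out was not tested. Keeping only peaks at or above the list's median −log10 q left 13 peaks at Il10 and 18 at Il10ra, and raised the median fold at Il10ra to 9.33, since weak peaks were removed. In the reported and the 4 alternative settings, peak number was lower and the median gap longer at Il10 than at Il10ra. The region counted was larger at Il10ra in every setting except 25 kb on each side of the gene start. There, 16 peaks were counted at Il10 and 24 at Il10ra. The median fold was lower at Il10 in 4 of 5 settings. The exception was peaks with a summit near the gene, with 5.26 at Il10 and 4.68 at Il10ra. The same order held for peaks reaching within 10 kb of the gene starts, but not within 1, 5, 20 or 25 kb. The median width was larger at Il10 in 4 of 5; near the genes it was 179.5 bp at Il10 and 187.5 bp at Il10ra. No paired analysis was possible because each peak has only 1 value for the series, and no sample could be left out for the same reason. With depth unknown, a stretch without peaks may hold open chromatin below detection.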
